A study of Mus musculus musculus x M. m. domesticus and Mus musculus musculus x Mus musculus castaneus and Mus musculus domesticus with 42 samples.

Results

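The genes of cholesterol and fatty acid synthesis were followed through brain, liver and testis of house mouse subspecies and their F1 hybrids. The set holds 37 genes, 21 of a sterol branch and 16 of a fatty acid branch, and its probe sets are those annotated to 1 of these genes and to no other. That gave 80 of the 45037 probe sets on the array, 44 in the sterol branch and 36 in the fatty acid branch. At least 1 probe set was found for 36 of the 37 genes, out of 18193 genes with a probe set of their own, and for the remaining one, the sterol branch gene Acat2, none was. Of the 36 genes, 11 had 1 probe set and 25 had several, up to 6.

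The study compared males of inbred lines derived from the wild and of reciprocal crosses between them, to see how differences in transcript level between subspecies are inherited in F1 hybrids. Brain, liver and testis of 14 males were each hybridised to 1 Affymetrix GeneChip array, 42 arrays in all, with 2 males in each of 7 genotypes. The musculus x castaneus F1, with a musculus mother, were 53 days old, and the castaneus x musculus F1, with a castaneus mother, were 54 days old. Their parents castaneus and musculus were both 47 days old. The musculus x domesticus F1 were 53 days old, the domesticus x musculus F1 50 days and domesticus 45 days. A difference between subspecies is a difference between the inbred lines used, and wherever the ages differ, genotype and age cannot be told apart. Both crosses share the same 2 musculus males.

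Cholesterol is made from acetyl-CoA through mevalonate, the isoprenoids, squalene and lanosterol, and fatty acids are made from the same precursor through malonyl-CoA and then elongated, desaturated and esterified. The sterol branch is driven mainly by the transcription factor SREBP-2, the product of Srebf2, and the fatty acid branch largely by SREBP-1c, a product of Srebf1. Insig1 holds both factors back in the endoplasmic reticulum when sterols are plentiful. Liver is a main site of both branches. The brain makes its own cholesterol, much of it for myelin, and Leydig cells of the testis use cholesterol for steroid hormones.

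The signal of a probe set is its array brightness, scaled on each array to a shared target. Differences were taken on the log2 scale of signal plus 31 and are given with their standard error (SE), and 1 on that scale is a 2-fold difference for signals far above 31. Each gene was read from its brightest probe set of the tissue, and other probe sets are given for several genes where they differ in sign or by a wide margin. A gene is called where limma's moderated test, fitted to the 14 arrays of a tissue and adjusted by the Benjamini-Hochberg method over all 27022 probe sets tested there, gave an adjusted p under 0.05. All 20 sterol genes with a probe set passed the filter on dim probe sets in every tissue. All 16 fatty acid genes passed in liver, and all but Acacb, the mitochondrial acetyl-CoA carboxylase, in brain and testis. No levels are compared between probe sets. Called genes were picked for groups far apart, so a lack of overlap between their arrays adds no support to the call. No share of probe sets without overlap was computed. With 2 arrays a genotype, their number limits the precision of every value, and in bulk tissue fewer cells of a type and less RNA per cell cannot be told apart.

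The tissues matched their labels. The summed signal of 5 hepatocyte markers was 102623 to 152577 in livers, at most 498 in brains and 1149 to 4171 in testes. Neuron markers summed to 34531 to 48046 in brains and haploid germ cell markers to 42499 to 76659 in testes. Testes of the musculus x castaneus F1 stood apart, since 28.4% of all probe sets were called between them and testes of the castaneus x musculus F1, against 0.204% between the reciprocal F1 of the domesticus cross. In 1 liver, of musculus x castaneus F1 male 2, exocrine pancreas markers summed to 36789, against at most 3242 in any other liver.

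In liver, castaneus had higher signals of cholesterol synthesis genes than musculus and lower signals of several fatty acid genes. Of 20 sterol genes 9 rose and none fell, and of 16 fatty acid genes 3 fell and none rose, while 6.55% of all probe sets were called in this comparison, 3.14% higher and 3.41% lower. The median difference was 0.78 over the sterol genes, 17 of them above 0, and -0.53 over the fatty acid genes, 3 of them above 0, against -0.06 over all probe sets tested. Counted over all probe sets of the branches, 15 of 40 sterol probe sets rose and none fell, and 6 of 31 fatty acid probe sets fell and none rose. The call rests in part on 1 array: without musculus male 1, 4 members were called, Cyp51, Dhcr7, Hsd17b7 and Msmo1, and without castaneus male 2, 6 were.

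**Figure D1:**
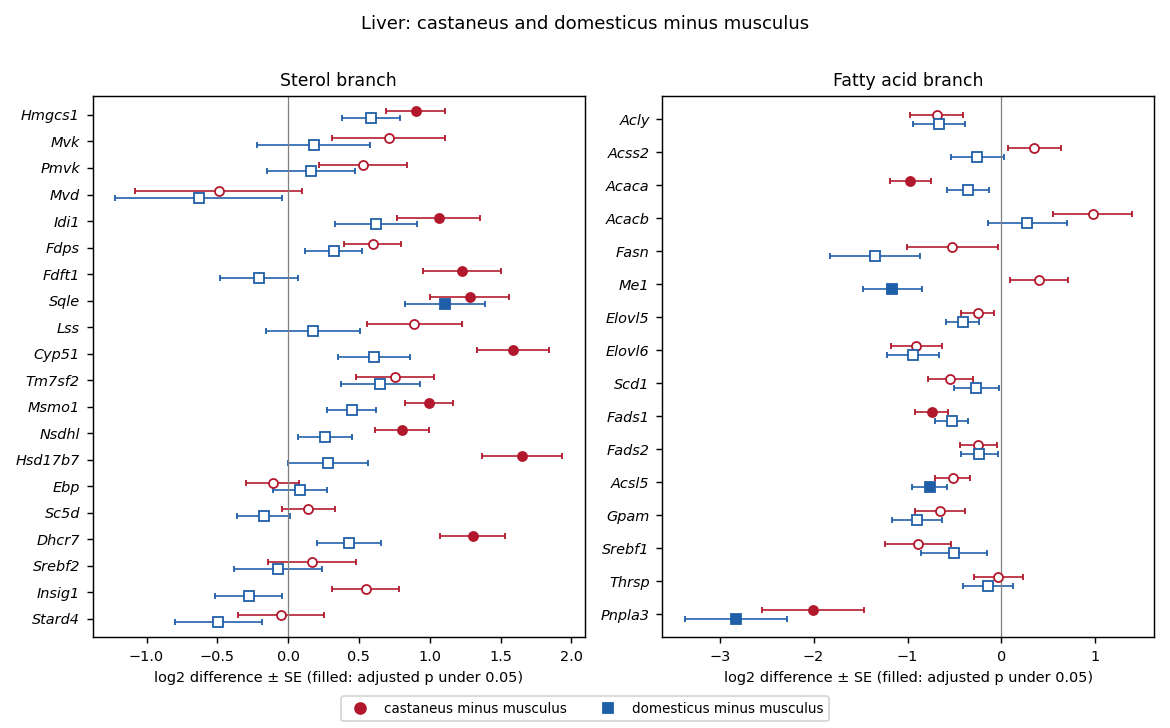
Difference of each sterol gene (left) and each fatty acid gene (right) from musculus in liver, on the log2 scale of signal plus 31, for castaneus and for domesticus. Points are differences with bars of 1 SE and filled points are called. Most sterol genes of castaneus lie to the right of 0, with Hsd17b7 at 1.65, and most fatty acid genes of both subspecies lie to the left, with Pnpla3 at -2.01 in castaneus and -2.83 in domesticus.

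The first steps of the sterol branch run from acetyl-CoA to the isoprenoids. Hmgcs1, the cytosolic HMG-CoA synthase that starts the mevalonate pathway, had signals of 26149 and 33626 in castaneus livers, against 14878 and 16947 in musculus livers. The groups did not overlap, and the difference was 0.90 (SE 0.21, limma adjusted p = 0.0195). Its probe set 1433446_at differed more, with 13558 and 20342 in castaneus livers against 2780 and 4091 in musculus livers, a difference of 2.29 (adjusted p = 0.000303). Idi1, which interconverts the 2 isoprenoid units, rose by 1.06 (adjusted p = 0.0478). The kinases Mvk and Pmvk, at 0.71 and 0.53, and the farnesyl diphosphate synthase Fdps, at 0.60, were not called. Mvd, the decarboxylase that makes isopentenyl diphosphate, was not called either, at -0.49, and its 2 castaneus livers were far apart at 469 and 1320 against 1097 and 1152 in musculus livers.

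The steps from squalene to cholesterol held most of the called genes. Fdft1, squalene synthase, had 14388 and 20984 in castaneus livers, against 6840 and 8037 in musculus livers, a difference of 1.23 (adjusted p = 0.017). Sqle, squalene epoxidase and a rate-limiting enzyme of the pathway, had 4778 and 5741 in castaneus livers, against 1765 and 2579 in musculus livers, a difference of 1.28 (adjusted p = 0.0146). In both genes each castaneus liver was above each musculus liver. Lss, which closes the sterol ring, was at 0.89 and not called.

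Cyp51, the lanosterol demethylase, had 6370 and 8078 in castaneus livers, against 2076 and 2695 in musculus livers. The groups were well apart, with a difference of 1.59 (SE 0.26, adjusted p = 0.0022). Its probe set 1422533_at gave 2.62 (adjusted p = 0.000137), and 1422534_at gave -0.13. Hsd17b7, a ketoreductase of the demethylation steps, had 3732 and 8053 in castaneus livers, against 1757 and 1687 in musculus livers, a difference of 1.65 (SE 0.28, adjusted p = 0.00334). Here the castaneus males themselves differed widely, with a difference of 1.10 (adjusted p = 0.0172) without castaneus male 2, and the other 3 probe sets, none called, gave 0.76, 0.68 and -0.40.

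Dhcr7, which makes cholesterol in the last step, had 6995 and 10332 in castaneus livers, against 3381 and 3475 in musculus livers. The difference was 1.30 (SE 0.23, adjusted p = 0.00402), with no overlap. Msmo1 and Nsdhl, which act with Hsd17b7 in removing the methyl groups, rose by 0.99 (adjusted p = 0.00369) and 0.80 (adjusted p = 0.0242). Other enzymes of these late steps were not called, with Tm7sf2, a sterol reductase, at 0.75, the desaturase Sc5d at 0.14 and the isomerase Ebp at -0.11. The late steps thus held called genes beside genes with differences near 0.

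The regulators of the branch were not called in castaneus liver. Srebf2 had 1013 and 789 in castaneus livers, against 758 and 825 in musculus livers, a difference of 0.17. Insig1 was at 0.55. Of 10 tested genes of SREBP control and other lipid regulators (Scap, Insig2, the site proteases, Mlxipl, Mlx and others), none was called. Among them 1 had an unadjusted p under 0.05, as 19.6% of all probe sets did. The sterol carrier Stard4 gave opposite answers by probe set: 1455011_at, the brightest, was at -0.05, while 1429240_at had 4558 and 3725 in castaneus livers, against 1056 and 872 in musculus livers, a difference of 2.07 (adjusted p = 0.00157). The third probe set, 1429239_a_at, was at 0.16.

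In the fatty acid branch, 3 genes fell in castaneus liver. Pnpla3, a lipid droplet enzyme controlled by SREBP-1c, had 326 and 413 in castaneus livers, against 3422 and 710 in musculus livers, a difference of -2.01 (SE 0.54, adjusted p = 0.0456). The groups did not overlap, but musculus male 1 was far above male 2, and without it the difference was -0.90 (adjusted p = 0.362). Acaca, the cytosolic acetyl-CoA carboxylase that makes malonyl-CoA, had 719 and 1031 in castaneus livers, against 1944 and 1516 in musculus livers, a difference of -0.97 (adjusted p = 0.0187). Fads1, the delta-5 desaturase of polyunsaturated fatty acids, had 7697 and 9001 in castaneus livers, against 16565 and 11727 in musculus livers, a difference of -0.74 (adjusted p = 0.0234), and its probe set 1440444_at was at -0.24. Without musculus male 1 the Fads1 difference was -0.49 (adjusted p = 0.245).

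Musculus male 1 also had the highest liver signal of Srebf1, 14506 against 6495 in musculus male 2, and of Gpam, the mitochondrial acyltransferase that starts glycerolipid synthesis, 18786 against 13443. The castaneus livers had 4209 and 6501 for Srebf1, whose difference of -0.89 was not called, nor was that of Gpam at -0.65. Acly, the ATP citrate lyase that supplies acetyl-CoA, was at -0.69 and not called in its brightest probe set. Its probe set 1425326_at had 939 and 584 in castaneus livers, against 4498 and 2793 in musculus livers, a difference of -2.21 (adjusted p = 0.00218). Fasn, the fatty acid synthase, overlapped between the groups, with 5979 and 8366 in castaneus livers and 12754 and 8128 in musculus livers, a difference of -0.52. Acacb, Me1 and Acss2 were the 3 fatty acid genes above 0, at 0.97, 0.40 and 0.35, and were not called. Scd1, the stearoyl-CoA desaturase (-0.55), Acsl5 (-0.52), Elovl6 (-0.91), Elovl5 (-0.25), Fads2 (-0.25) and Thrsp (-0.03) completed the branch, none called, although the Fads2 probe set 1449325_at fell by 0.68.

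In domesticus liver the sterol genes were closer to those of musculus. Sqle alone rose among 20 sterol genes and none fell, while 3 of 16 fatty acid genes fell and none rose, against 6.17% of all probe sets called, 3.16% higher and 3.01% lower. The median was 0.22 over the sterol genes and -0.52 over the fatty acid genes, against -0.05 over all probe sets tested. Among the fatty acid genes 9 had an unadjusted p under 0.05, all below 0, where 18.6% of all probe sets had such a p in either direction. The count was 1 without musculus male 1 and 2 without domesticus male 1.

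Sqle had 4301 and 4994 in domesticus livers, against 1765 and 2579 in musculus livers, a difference of 1.11 (SE 0.28, adjusted p = 0.033). Pnpla3 had 207 and 182 in domesticus livers, against 3422 and 710 in musculus livers, a difference of -2.83 (SE 0.54, adjusted p = 0.00725). Without musculus male 1, again the extreme value, the Pnpla3 difference was -1.72 (adjusted p = 0.0496). Me1, the malic enzyme that supplies NADPH, had 2456 and 1521 in domesticus livers, against 3828 and 4970 in musculus livers, a difference of -1.16 (SE 0.31, adjusted p = 0.0461). Acsl5, an acyl-CoA synthetase, had 8500 and 7612 in domesticus livers, against 14842 and 12605 in musculus livers, a difference of -0.76 (adjusted p = 0.026). These 4 genes did not overlap between domesticus and musculus, which adds no support as they were picked by the call.

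Several probe sets other than the brightest were also called in domesticus liver. Stard4 1429240_at had 5282 and 2599 in domesticus livers, a difference of 1.92 from musculus (adjusted p = 0.00268), where 1455011_at gave -0.49. Cyp51 1422533_at had 1688 and 1974 in domesticus livers, against 240 and 459 in musculus livers, a difference of 2.35 (adjusted p = 0.00032), where the brightest Cyp51 probe set gave 0.61 and was not called. For Hmgcs1, 1433446_at gave 1.53 (adjusted p = 0.00538) and the brightest probe set 0.58. Fasn was uneven among domesticus livers, 2093 and 7576 against 12754 and 8128 in musculus livers, and its difference of -1.35 was not called.

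Some genes of neighbouring pathways were called in liver, where 6.17% of all probe sets were called in domesticus and 6.55% in castaneus. Of 10 other sterol pathway genes, Abcg5, a sterol exporter to bile, and Cyp39a1, an oxysterol hydroxylase of bile acid synthesis, rose in domesticus by 1.53 and 1.48, and Cyp39a1 fell by 1.93 in castaneus. Of 26 other fatty acid and glycerolipid genes, only Hacd1, a dehydratase of fatty acid elongation, was called, at -1.53 in domesticus and -0.74 in castaneus. Of 10 fasting response genes Acot1, a cytosolic acyl-CoA thioesterase, fell by 2.99 in castaneus and none was called in domesticus, where 2 had an unadjusted p under 0.05. Of 11 circadian clock genes none was called in castaneus, also none at an unadjusted p under 0.05, and Per2 rose by 2.21 in domesticus. The clock genes on the array summed to 7446 and 9829 in castaneus livers, to 29506 and 11491 in domesticus livers and to 15414 and 8486 in musculus livers. Time of day is not among the labels, and the part of the clock in these differences was not tested.

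For members called between the parents, the F1 livers mostly lay in between. Such members were picked for parents far apart on these arrays, which alone favours F1 means in between. No share over all called probe sets was computed beside these counts. Of the 12 members called between castaneus and musculus, 11 had the means of both F1 between the parental means and 1 had 1 of them there, and for domesticus all 4 called members had both F1 means in between. For Cyp51 the musculus x castaneus F1 had 5291 and 4169 and the castaneus x musculus F1 4955 and 5360, all below castaneus and above musculus. For Dhcr7 the musculus x castaneus F1 had 6037 and 8185 and the castaneus x musculus F1 6833 and 5910, where only 1 value lay inside the castaneus range and none reached musculus.

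Measured against the mean of both parents, no member was called by limma in the F1 livers of either cross, where 0.241% of all probe sets were called in the castaneus cross and 0.178% in the domesticus cross. At an unadjusted p under 0.05 there were 2 sterol and 3 fatty acid genes in the castaneus cross, where 7.81% of all probe sets had such a p, and no sterol and 1 fatty acid gene in the domesticus cross, where 5.5% had. The median over the sterol genes was 0.23 in the castaneus cross, with 15 of 20 above 0, and -0.09 in the domesticus cross. Over the fatty acid genes it was -0.11 and -0.22, and over all probe sets -0.04 and -0.01. The liver with pancreas transcripts belongs to the castaneus cross, and the count was also 0 without it.

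**Figure D2:**
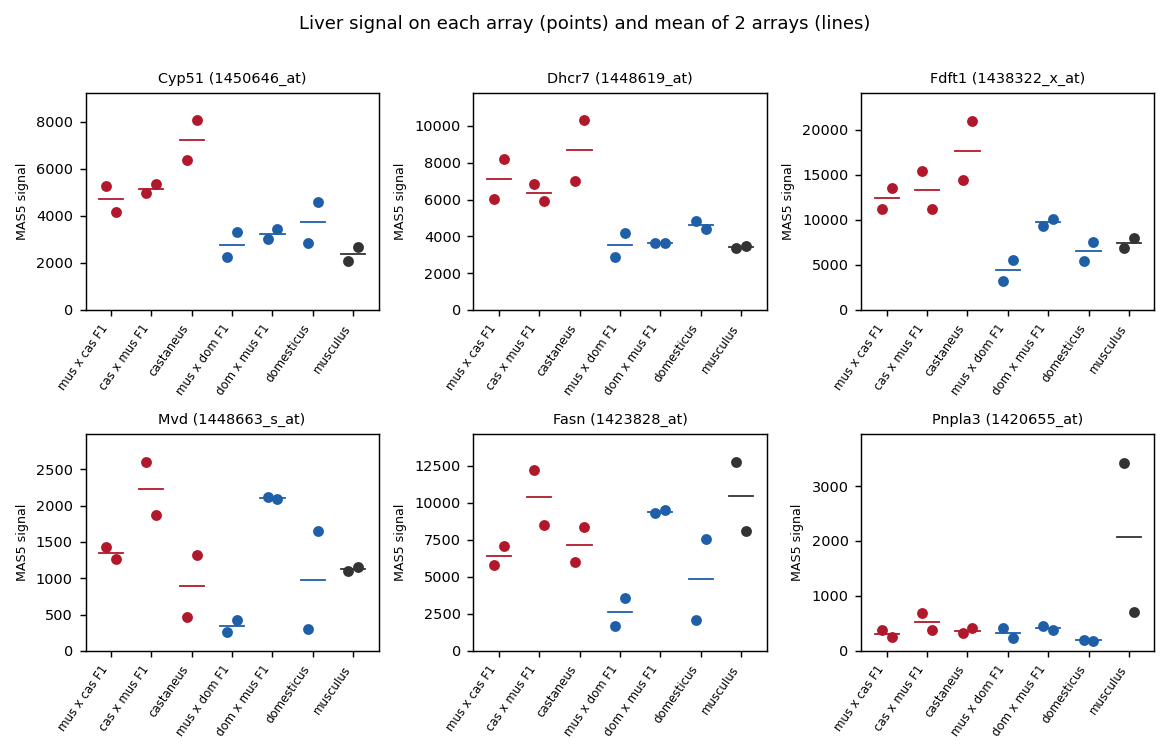
Signal of 6 members on each of the 14 liver arrays, 1 point per male, by genotype. Cyp51, Dhcr7 and Fdft1 are on average high in castaneus, intermediate in its F1 and low in musculus, Mvd and Fasn are low in the musculus x domesticus F1 and high in the domesticus x musculus F1, and Pnpla3 has 1 musculus male at 3422.

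The reciprocal F1 of the domesticus cross differed widely in liver without passing the adjustment. No member was called by limma between musculus x domesticus F1 and domesticus x musculus F1, where 0.0888% of all probe sets were, but 11 sterol and 5 fatty acid genes had an unadjusted p under 0.05, all of them lower in the musculus x domesticus F1. Over all probe sets, 9.62% had such a p in either direction. The median was -0.67 over the sterol genes, 3 of 20 above 0, and -0.14 over the fatty acid genes, against 0.04 over all probe sets.

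Mvd had 260 and 431 in musculus x domesticus F1 livers, against 2114 and 2086 in domesticus x musculus F1 livers, a difference of -2.54 (SE 0.59, adjusted p = 0.127). Fasn had 1712 and 3543 in musculus x domesticus F1 livers, against 9303 and 9526 in domesticus x musculus F1 livers, a difference of -1.92 (adjusted p = 0.152). Both were several times lower in the F1 with a musculus mother, with no overlap. Mvk (-1.59), Srebf1 (-1.23), Fdft1 (-1.18) and Insig1 (-0.93) had the same sign, with adjusted p of 0.147, 0.225, 0.127 and 0.156. Sc5d differed between its probe sets, at -0.04 in the brightest and -2.03 in 1434520_at (adjusted p = 0.0567).

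The clock genes moved with this comparison. All 11 tested had an unadjusted p under 0.05, 7 higher and 4 lower in the musculus x domesticus F1, although none was called. Dbp, an output gene of the clock, was 5.86 higher on the log2 scale (adjusted p = 0.0623) and Npas2, a partner of Bmal1, was at -3.16. The clock genes summed to 27002 and 24726 in musculus x domesticus F1 livers, against 6559 and 6937 in domesticus x musculus F1 livers. The fasting response genes summed to 61578 and 44033 in musculus x domesticus F1 livers and to 44791 and 28649 in domesticus x musculus F1 livers. Exocrine pancreas markers, 4 of 5 on the array, summed to 2541 and 3242 in musculus x domesticus F1 livers, against 326 and 237 in domesticus x musculus F1 livers. The part of any of these in the difference of the sterol genes was not tested.

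Between the reciprocal F1 of the castaneus cross, no member was called in liver by limma, none had an unadjusted p under 0.05, and of all probe sets 0.037% were called and 3.51% had such a p. The medians were -0.08 over the sterol and -0.14 over the fatty acid genes, against 0.03 over all probe sets. Their clock sums were 11027 and 10271 in musculus x castaneus F1 livers and 7784 and 12176 in castaneus x musculus F1 livers.

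In testis the parental differences had no common direction in a branch. In castaneus testis, Dhcr7, Fads1 and Scd1 rose and Fdps, Stard4, Acsl5 and Me1 fell, 7 of 35 members tested, where 13.5% of all probe sets were called. In domesticus testis, Pmvk and Fads1 rose and Fdps fell, 3 of 35, where 12.8% of all probe sets were called. The medians over the sterol genes were -0.07 in castaneus and 0.10 in domesticus, over the fatty acid genes 0.16 and 0.09, and over all probe sets 0.04 and 0.0048. The counts were 4 in castaneus without castaneus male 2, and in domesticus 0 without domesticus male 2 and 1 without either musculus male.

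Fdps had 2242 and 1415 in castaneus testes and 2650 and 2116 in domesticus testes, against 4169 and 4437 in musculus testes. Both subspecies lay below musculus, by -1.26 (SE 0.21, adjusted p = 0.0012) and -0.85 (SE 0.21, adjusted p = 0.0166). Fads1 had 2539 and 1135 in castaneus testes and 1104 and 1447 in domesticus testes, against 504 and 613 in musculus testes. Its differences were 1.56 (SE 0.30, adjusted p = 0.00299) and 1.14 (SE 0.30, adjusted p = 0.0214), and its probe set 1440444_at gave 0.16 and 0.08. Without castaneus male 1 the castaneus difference was 0.99 (adjusted p = 0.0313). Both genes thus separated musculus from the other subspecies, on the same 2 musculus arrays.

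Dhcr7 had 1015 and 820 in castaneus testes, against 355 and 494 in musculus testes, a difference of 1.07 (SE 0.20, adjusted p = 0.00294). Stard4 had 180 and 121 in castaneus testes, against 353 and 327 in musculus testes, a difference of -1.05 (adjusted p = 0.00818), while its probe set 1429240_at gave 0.30. Pmvk, phosphomevalonate kinase, had 400 and 482 in domesticus testes, against 248 and 257 in musculus testes, a difference of 0.73 (adjusted p = 0.0292). The groups compared did not overlap in these genes, which adds no support as they too were picked by the call. Acsl5 and Me1 fell in castaneus by 0.49 (adjusted p = 0.0415) and 0.41 (adjusted p = 0.0392).

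The probe sets of Scd1 disagreed in testis. The brighter, 1415964_at, had 1123 and 803 in castaneus testes, against 500 and 441 in musculus testes, a rise of 0.97 (adjusted p = 0.00377). The other, 1415965_at, gave -0.50 in castaneus, not called. In domesticus 1415964_at was at 0.42 and not called, while 1415965_at had 87 and 111 in domesticus testes, against 829 and 833 in musculus testes, a difference of -2.74 (adjusted p = 2.38e-07). On 1415965_at the F1 of that cross lay in between, with 284 and 218 in musculus x domesticus F1 testes and 361 and 331 in domesticus x musculus F1 testes.

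Markers of some testis cells moved with the parental comparison, and others overlapped between the parents. Leydig cell markers summed to 8984 and 6229 in castaneus testes and 6512 and 7558 in domesticus testes, against 2744 and 3892 in musculus testes. Of the 4 Leydig cell markers 3 were on the array and tested, and of these Cyp17a1, an enzyme of androgen synthesis, rose by 1.49 in castaneus and 1.35 in domesticus. Adipocyte markers summed to 3181 and 2756 in castaneus testes, against 1234 and 1173 in musculus testes, with Fabp4 higher by 3.56 and Retn by 1.11 among 3 tested, of 7 listed and 5 on the array. None of these markers, and none of the haploid germ cell and Sertoli cell markers, was listed at 0 on both arrays of a genotype. Haploid germ cell markers summed to 46167 and 56333 in castaneus testes and 64942 and 62066 in domesticus testes, against 63952 and 76659 in musculus testes. Sertoli cell markers summed to 10959 and 13304 in castaneus testes and 14176 and 13512 in domesticus testes, against 12651 and 11962 in musculus testes. The part of any of these cell types in the differences of Fads1, Scd1, Dhcr7 and Fdps was not tested.

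In neighbouring pathways of the testis, 10 genes of SREBP control and other lipid regulators were tested. Of these the liver X receptor gene Nr1h3 fell by 1.33 in castaneus and 1.39 in domesticus, and Insig2 fell by 0.45 in domesticus. Of 8 other genes listed with the sterol pathway, Cyp27a1, a sterol hydroxylase, rose by 1.05 in castaneus. In domesticus Npc2 rose by 0.56 and Acat1, a mitochondrial thiolase outside sterol synthesis, by 0.70. Of 25 other fatty acid and glycerolipid genes, 2 rose and 3 fell in castaneus, and 4 rose and 2 fell in domesticus. Hacd1 rose by 1.60 in castaneus and 1.81 in domesticus, and Lpin1, a phosphatidate phosphatase, fell by 0.65 and 1.20. Of all probe sets, 13.5% were called in castaneus testis and 12.8% in domesticus testis. Both subspecies are set here against the same musculus testes.

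Between the reciprocal F1 of the castaneus cross, 17 of 35 members were called in testis, where 28.4% of all probe sets were, 17.9% higher and 10.6% lower. In the musculus x castaneus F1, 8 sterol genes rose and 1 fell, 6 fatty acid genes rose and 1 fell, and Scd1 was called with opposite signs on its probe sets. The median was 0.46 over the sterol genes and 0.57 over the fatty acid genes, against 0.24 over all probe sets. Quantile normalization moved the median of all probe sets to 0.03 and left 13 genes higher and 3 lower by their brightest probe sets, 14 of them shared with the 17. Between the reciprocal F1 of the domesticus cross, no member was called by limma, and 0.204% of all probe sets were. At an unadjusted p under 0.05 there were 1 sterol and 2 fatty acid genes, where 4.88% of all probe sets had such a p.

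**Figure D3:**
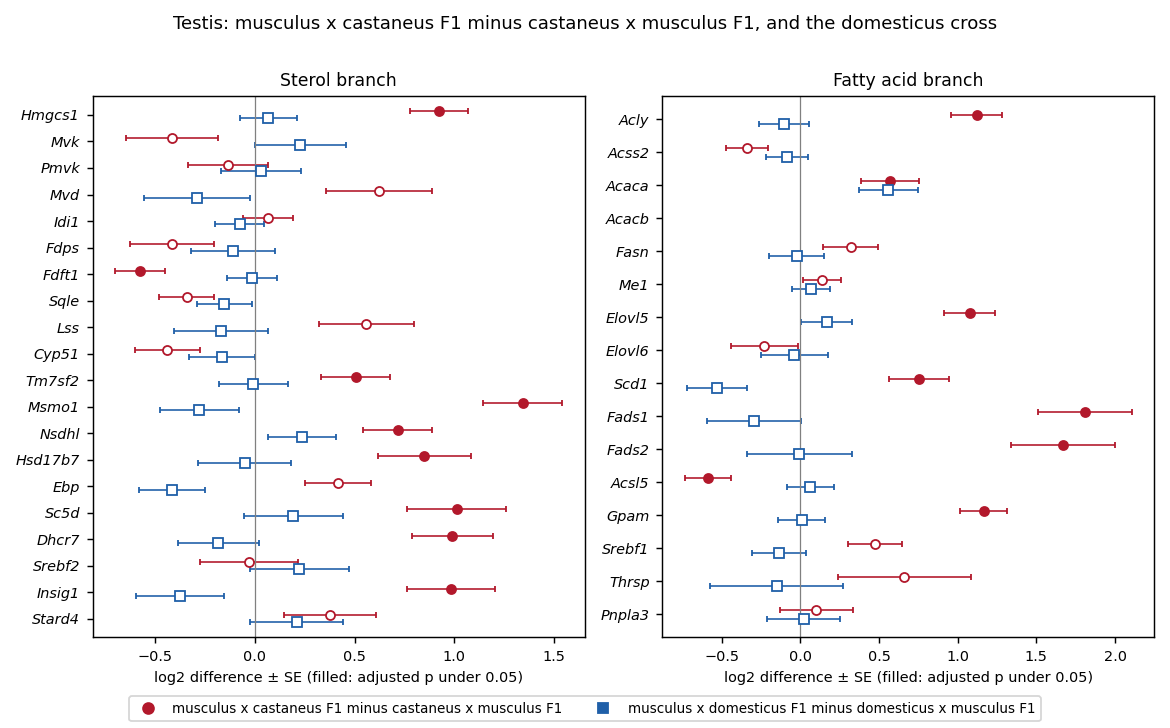
Difference between reciprocal F1 in testis for each sterol gene (left) and fatty acid gene (right), on the log2 scale of signal plus 31, as musculus x castaneus F1 minus castaneus x musculus F1 and as musculus x domesticus F1 minus domesticus x musculus F1. Bars are 1 SE and filled points are called, 17 in the castaneus cross, from Fads1 at 1.81 to Acsl5 at -0.59, and none in the domesticus cross.

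Msmo1 had 1324 and 903 in musculus x castaneus F1 testes, against 440 and 386 in castaneus x musculus F1 testes, a difference of 1.34 (SE 0.20, adjusted p = 0.00047). Hmgcs1 had 3602 and 3770 in musculus x castaneus F1 testes, against 1950 and 1901 in castaneus x musculus F1 testes, a difference of 0.93 (SE 0.15, adjusted p = 0.000657). Both pairs of arrays were tight beside the gap between them. Sc5d had 748 and 636 in musculus x castaneus F1 testes, against 309 and 345 in castaneus x musculus F1 testes, a difference of 1.01 (adjusted p = 0.00944). Dhcr7 had 1058 and 1064 in musculus x castaneus F1 testes, against 483 and 557 in castaneus x musculus F1 testes (0.99, adjusted p = 0.00348). Neither gene overlapped between the reciprocal F1. Insig1 had 717 and 833 in musculus x castaneus F1 testes, against 431 and 326 in castaneus x musculus F1 testes (0.99, adjusted p = 0.00566). Hsd17b7, Nsdhl and Tm7sf2 rose by 0.85, 0.72 and 0.51, and the Hsd17b7 probe set 1440057_at gave 0.12. Without castaneus x musculus F1 male 1, Hsd17b7 was at 0.49 (adjusted p = 0.188).

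Fdft1, the entry to squalene, went the other way. It had 5475 and 5696 in musculus x castaneus F1 testes, against 8503 and 8179 in castaneus x musculus F1 testes, a difference of -0.58 (adjusted p = 0.00494). Cyp51, Sqle, Fdps and Mvk were at -0.44, -0.34, -0.42 and -0.42 and were not called. Fdft1, Cyp51, Sqle and Fdps are also the sterol genes that were higher in testis than in brain over all genotypes, as described with the tissues.

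In the fatty acid branch, Fads1 had 2644 and 2399 in musculus x castaneus F1 testes, against 722 and 671 in castaneus x musculus F1 testes, a difference of 1.81 (SE 0.30, adjusted p = 0.00089). Fads2, the delta-6 desaturase, had 2480 and 2356 in musculus x castaneus F1 testes, against 729 and 749 in castaneus x musculus F1 testes, a difference of 1.67 (SE 0.33, adjusted p = 0.00286). For both desaturases the arrays of each F1 were close together and the groups far apart. Gpam had 1645 and 1711 in musculus x castaneus F1 testes, against 722 and 739 in castaneus x musculus F1 testes (1.17, adjusted p = 0.00019). Acly had 3335 and 4053 in musculus x castaneus F1 testes, against 1637 and 1712 in castaneus x musculus F1 testes (1.12, adjusted p = 0.000385). Elovl5, an elongase of polyunsaturated fatty acids, had 4178 and 5428 in musculus x castaneus F1 testes, against 2406 and 2088 in castaneus x musculus F1 testes (1.08, adjusted p = 0.000537).

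Scd1 rose by 0.75 (adjusted p = 0.0112) on 1415964_at and fell by 0.80 (adjusted p = 0.00505) on 1415965_at, so no direction is given for it. Acaca rose by 0.57 (adjusted p = 0.0356), with 0.20 on 1427595_at. Acsl5 had 499 and 554 in musculus x castaneus F1 testes, against 809 and 804 in castaneus x musculus F1 testes, a difference of -0.59 (adjusted p = 0.0105). Fasn and Srebf1 were at 0.32 and 0.47 and were not called.

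**Figure D4:**
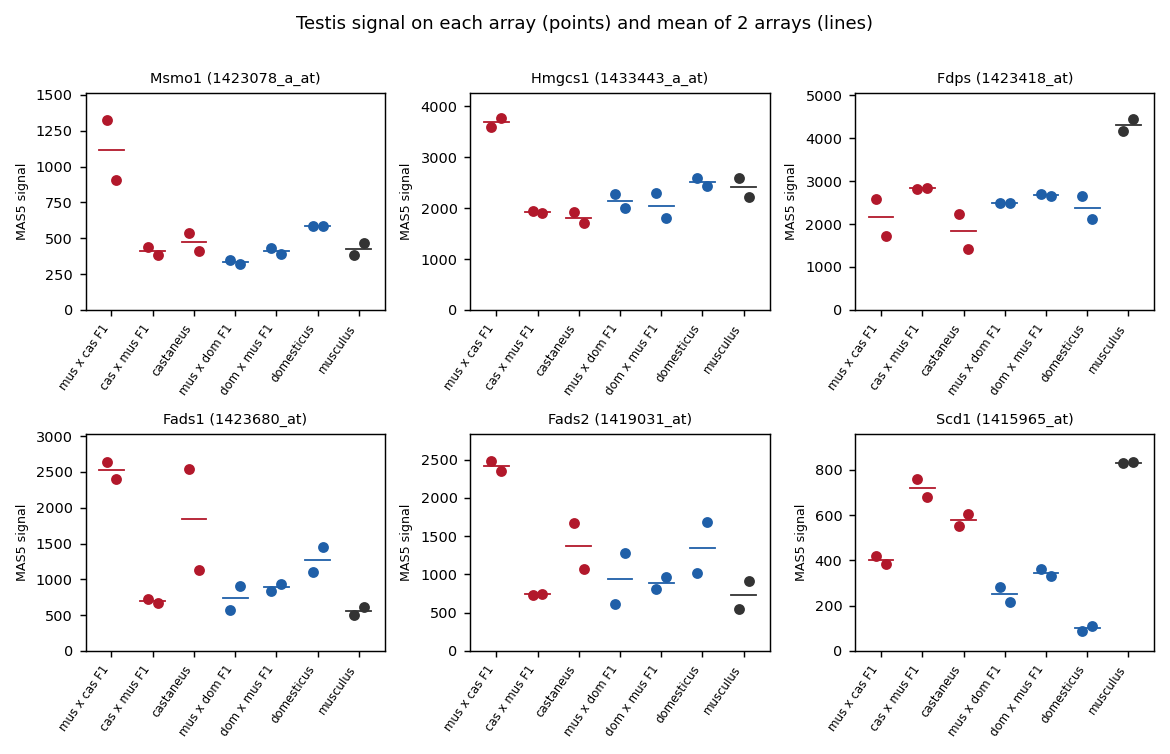
Signal of Msmo1, Hmgcs1, Fdps, Fads1, Fads2 and Scd1 (probe set 1415965_at) on each of the 14 testis arrays, 1 point per male, by genotype. The musculus x castaneus F1 are above the other genotypes for Msmo1 and Hmgcs1, Fdps is highest in musculus, and Scd1 1415965_at is lowest in domesticus, at 87 and 111.

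Set against the mean of both parents, the musculus x castaneus F1 alone had 21 members called in testis, where 35.3% of all probe sets were, and the castaneus x musculus F1 alone had none by limma, where 0.3% were. In the musculus x castaneus F1, 9 sterol genes rose and 3 fell, and 8 fatty acid genes rose and 1 fell by their brightest probe sets, with Thrsp, a nuclear regulator of lipid synthesis, at 1.63, Msmo1 at 1.24, Insig1 at 1.12, Hmgcs1 at 0.81, Fads1 at 1.34 and Fads2 at 1.28. The mean of both F1 together gave 11 called members, where 17.4% of all probe sets were. These were Insig1 (0.63), Msmo1 (0.56), Ebp (0.54), Hmgcs1 (0.35), Srebf2 (-0.54) and Fdft1 (-0.29), and Thrsp (1.30), Acly (0.65), Elovl5 (0.52), Gpam (0.37) and Acsl5 (-0.34). In the castaneus x musculus F1 alone Thrsp was at 0.97, Srebf2 at -0.53 and the other 9 between -0.21 and 0.33, none called. Srebf2 was at -0.56 in the musculus x castaneus F1 alone and was not called there either (adjusted p = 0.059), and for both F1 together it was at -0.34 (adjusted p = 0.198) without musculus x castaneus F1 male 2. Thrsp was at 0.85 (adjusted p = 0.0154) without musculus male 2. Further probe sets of Thrsp, Gpam and Acly went the other way, at -0.39, -0.52 and -0.19, none called.

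In the domesticus cross no member was called by limma between the F1 testes and the mean of the parents, and 0.414% of all probe sets were. At an unadjusted p under 0.05 there were 2 sterol genes and no fatty acid gene, where 5.48% of all probe sets had such a p. Of the members called between the testes of the parents, both F1 means lay between the parents for all 3 in the domesticus cross and for 2 of 7 in the castaneus cross. Here too the members were picked by the parental difference, and no share over all called probe sets was computed.

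Other sterol and lipid genes were called with the members between the reciprocal F1 of the castaneus cross. Of all probe sets 28.4% were called there, 17.9% higher and 10.6% lower. Of 8 other genes listed with the sterol pathway 5 rose, led by the cholesterol exporters Abca1 (1.21) and Abcg1 (1.13), with Npc2 at 0.79. Acat1, a mitochondrial thiolase outside sterol synthesis, was at 0.62. Of 10 genes of SREBP control and other lipid regulators 4 rose and 1 fell. Scap, the escort of SREBP, was at 1.08. Mlxipl and its partner Mlx, transcription factors other than SREBP, were at 1.00 and 0.66, and Nr1h3 at -0.61. Of 25 other fatty acid and glycerolipid genes 8 rose and 3 fell, with Agpat2 at -1.49, Acsl4 at 1.29, Hsd17b12 at 0.96 and Scd2 at 0.94.

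Leydig cell markers summed to 10786 and 10878 in musculus x castaneus F1 testes, against 5657 and 4415 in castaneus x musculus F1 testes, and Cyp17a1 rose by 1.17 among 3 tested, all 3 with an unadjusted p under 0.05, as 40.7% of all probe sets had. Sertoli cell markers summed to 17282 and 18204 in musculus x castaneus F1 testes, against 12687 and 11560 in castaneus x musculus F1 testes. Haploid germ cell markers overlapped, with 48423 and 42499 in musculus x castaneus F1 testes and 49246 and 45243 in castaneus x musculus F1 testes. The part of these cell types in the differences of the sterol and fatty acid genes was not tested.

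In brain few members were called, about as many as the share of all probe sets would give. In castaneus, Stard4 and Fads1 rose and Mvd fell, 3 of 35, where 6.07% of all probe sets were called. In domesticus, Stard4 and Fads1 rose and Hsd17b7 fell, again 3 of 35, where 5.75% were called. The branch medians lay between -0.05 and 0.13. These counts were not stable to single arrays: in castaneus they were 0 without castaneus male 1 or without either musculus male, and in domesticus 0 without either musculus male and 1 without either domesticus male.

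Stard4 had 920 and 851 in castaneus brains and 1098 and 836 in domesticus brains, against 418 and 391 in musculus brains. The differences were 1.07 (SE 0.24, adjusted p = 0.0213) and 1.18 (SE 0.24, adjusted p = 0.0123), on the probe set 1429240_at that also stood out in liver. Its other probe sets gave -0.08 and 0.19 in castaneus and 0.19 and 0.27 in domesticus. Fads1 had 3434 and 3048 in castaneus brains and 3014 and 3128 in domesticus brains, against 2235 and 2134 in musculus brains, with differences of 0.56 (adjusted p = 0.018) and 0.49 (adjusted p = 0.0381). Its probe set 1440444_at gave -0.04 and -0.58.

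Mvd had 231 and 369 in castaneus brains, against 565 and 556 in musculus brains, a difference of -0.87 (adjusted p = 0.0319), with -0.31 on its other probe set and, without castaneus male 1, -0.56 (adjusted p = 0.188) on the first. Hsd17b7 had 425 and 359 in domesticus brains, against 684 and 674 in musculus brains, a difference of -0.75 (adjusted p = 0.0184), with -0.16 and -0.29 on the probe sets 1417871_at and 1440057_at. Hmgcs1, the entry to the pathway, overlapped between the parents in brain, with differences of -0.13 in castaneus and -0.02 in domesticus. No member was called by limma in brain for the F1 against their parents or between reciprocal F1. At an unadjusted p under 0.05 there were 1 fatty acid gene for the F1 of the castaneus cross, none for those of the domesticus cross, 2 sterol genes between the reciprocal F1 of the castaneus cross and 1 between those of the domesticus cross. The shares of all probe sets with such a p were 6.15%, 4.19%, 3.95% and 4.12% in these 4 comparisons. Of all probe sets, 0.137% were called for the F1 of each cross, 0.0111% between the reciprocal F1 of the castaneus cross and 0.0222% between those of the domesticus cross.

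Among neighbouring genes in brain, Elovl7 rose by 1.78 and Elovl2 by 0.66 in castaneus, both elongases of long fatty acids, of 26 other fatty acid and glycerolipid genes. Lpin1 fell by 1.17 in domesticus. Of all probe sets, 6.07% were called in castaneus brain and 5.75% in domesticus brain. Of 8 other sterol pathway genes, Cyp27a1 fell by 0.90 in castaneus and Npc2 rose by 0.55 in domesticus. Of 10 genes of SREBP control and other lipid regulators, Mbtps2, a protease that releases SREBP, rose by 0.56 in castaneus.

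Across tissues, both branches were highest in liver. Tissues were compared over all 7 genotypes, with the animal as a block, on the 20178 probe sets tested in all 3 tissues, which hold 35 members. Of 20 sterol genes 19 rose and 1 fell in liver relative to brain, and of 15 fatty acid genes 14 rose and none fell, where 84.1% of all probe sets were called, 38.5% higher and 45.5% lower. The medians were 2.10 and 1.83, against -0.08 over all probe sets. Sc5d (4.13, SE 0.08), Ebp (3.73, SE 0.05) and Tm7sf2 (3.54, SE 0.07) led the sterol genes, and Thrsp (4.13, SE 0.10) and Acsl5 (3.14, SE 0.05) the fatty acid genes, while Sc5d 1434520_at was at 2.00. Quantile normalization moved the median of all probe sets by 0.20 for liver against brain and by 0.18 for testis against brain.

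Insig1 had a lowest, median and highest signal of 7654, 14203 and 21141 in livers and of 207, 341 and 833 in testes, against 1450, 1873.5 and 3061 in brains. The 3 tissues did not overlap for it. Srebf2 had 568, 773.5 and 1178 in livers and 209, 410 and 504 in testes, against 592, 969.5 and 1309 in brains, and was the sterol gene that fell in liver, by 0.30, though under quantile normalization it was at -0.03 and not called (adjusted p = 0.777). Its signals overlapped between liver and brain. Pnpla3 was at 0.15 between liver and brain and not called, and ranged from 182 to 3422 in livers.

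In testis relative to brain, 4 sterol genes rose and 15 fell, and 2 fatty acid genes rose and 13 fell, where 85.6% of all probe sets were called, 32.8% higher and 52.7% lower. The medians were -0.68 and -1.08, against -0.26 over all probe sets. The sterol genes that rose were Fdft1 (1.52), Sqle (0.77), Fdps (0.67) and Cyp51 (0.56), which act between the isoprenoids and the first demethylation of lanosterol. Lss, which acts between Sqle and Cyp51, fell, at -0.35 and at -2.34 on its probe set 1426913_at. Under 1 alternative Lss was at -0.06 and not called. The sterol genes that fell the most were Msmo1 and Insig1, both at -2.40, and Hmgcs1 at -1.93. Mvk, at -0.27, was at 0.04 under quantile normalization. Fdft1 had 5475, 8389.5 and 9301 in testes and 3262, 9708 and 20984 in livers, against 2166, 2747.5 and 3664 in brains, so every testis was above every brain.

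**Figure D5:**
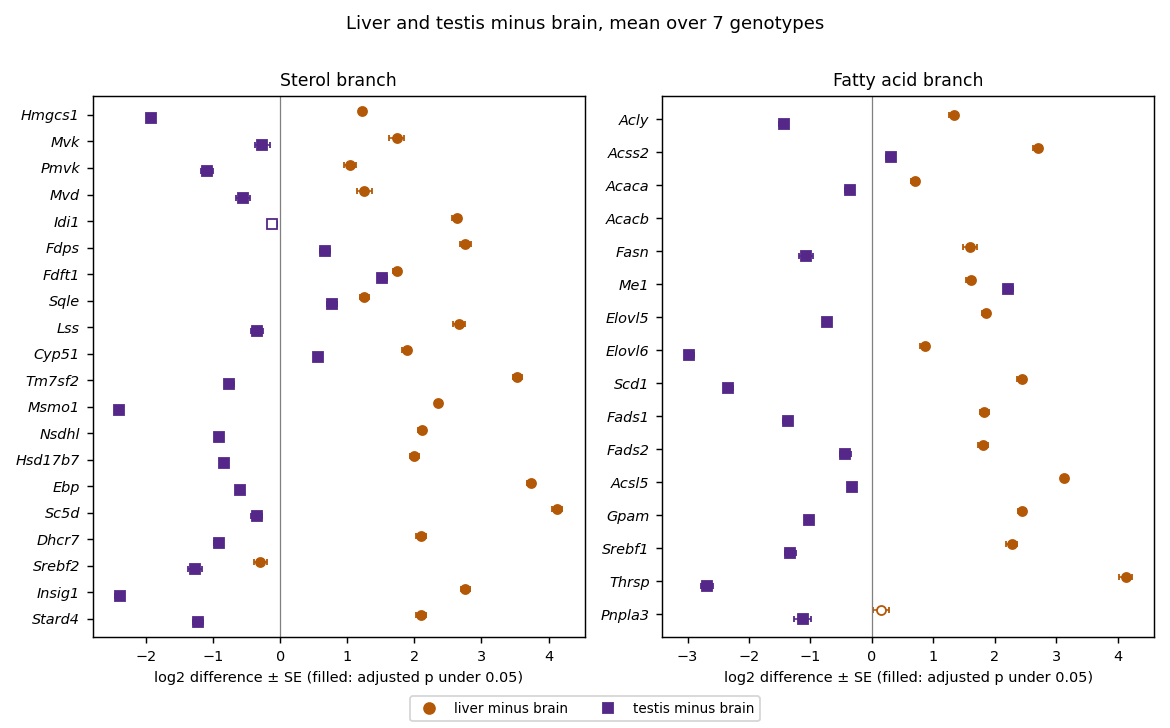
Difference of each sterol gene (left) and fatty acid gene (right) between tissues over all 7 genotypes, as liver minus brain and testis minus brain, on the log2 scale of signal plus 31 with bars of 1 SE. Nearly all genes lie to the right of 0 for liver and to the left for testis, with Fdft1, Sqle, Fdps, Cyp51, Me1 and Acss2 on the right for testis; Acacb was not tested and has no point.

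Me1 and Acss2, the acetyl-CoA synthetase of the cytosol, were the fatty acid genes that rose in testis, by 2.22 and 0.30. Me1 had 4619, 5646.5 and 6510 in testes and 1521, 3928.5 and 5974 in livers, against 937, 1182.5 and 1422 in brains. It was the only member that rose in testis relative to liver, by 0.61. Thrsp had 11, 124 and 301 in testes and 13293, 17748 and 25531 in livers, against 634, 1087 and 1439 in brains, with no overlap between the tissues. Elovl6 (-2.97), Thrsp (-2.68) and Scd1 (-2.33) fell the most in testis relative to brain, although Scd1 1415965_at rose by 1.09, the second Elovl6 probe set fell by 1.03 and the second Thrsp probe set was at -1.66.

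In testis relative to liver, all 20 sterol genes fell and 14 of 15 fatty acid genes fell, where 85.9% of all probe sets were called, 36.4% higher and 49.5% lower. The medians were -2.92 and -2.77, against -0.18 over all probe sets. Insig1 (-5.15) and Msmo1 (-4.75) fell the most in the sterol branch, and Thrsp (-6.81) and Scd1 (-4.77, with -2.06 on 1415965_at) in the fatty acid branch. Fdft1, at -0.22, was at 0.21 under quantile normalization and at 0.04 on its other probe set, so its direction between these tissues is not settled.

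The parental differences depended on the tissue for many members. An F test of the interaction in the same fit called 21 of 35 members for castaneus minus musculus, where 13.8% of all probe sets were called, and 12 of 35 for domesticus minus musculus, where 12.4% were. For Cyp51 the castaneus difference was 1.60 higher in liver than in brain and changed by -0.25 in testis relative to brain (adjusted p = 1.89e-06). For Fdps it was 1.03 higher in liver than in brain and changed by -0.82 in testis relative to brain (adjusted p = 0.000177), with 0.67 for liver (adjusted p = 0.0258) without castaneus male 2, so the same enzyme stood above 0 in castaneus liver, at 0.60 and not called, and fell in castaneus testis.

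Fads1 had the opposite pattern. Its castaneus difference was -1.30 in liver relative to brain and 1.00 in testis relative to brain (adjusted p = 6.12e-06), and its domesticus difference -1.02 and 0.66 (adjusted p = 0.000568). This pattern was that of the brightest probe set, where signals in castaneus were below musculus in liver and above it in brain and testis, each called. On 1440444_at the changes were -0.19 and 0.20 for castaneus (adjusted p = 0.688) and 0.17 and 0.66 for domesticus (adjusted p = 0.325), so neither was called and the liver sign for domesticus was the opposite. Pnpla3 differed between subspecies mainly in liver, with an interaction of -3.19 in liver relative to brain for domesticus (adjusted p = 2.53e-05) and -1.83 for castaneus (adjusted p = 0.0043). Without musculus male 1 the domesticus value was -2.12 (adjusted p = 0.00202) and the castaneus value -0.77 (adjusted p = 0.218). For Fads1 in domesticus the call was lost without musculus male 1 (adjusted p = 0.0585), and Pnpla3 was the 1 of 12 domesticus calls that held with each animal left out in turn, against 7 of 21 for castaneus, Cyp51, Fdps and Fads1 among them. With the interaction tested without the animal as a block, 10 members were called for castaneus and 7 for domesticus.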

How the data were processed

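The authors deposited 1 table of linear intensity values, which come from MAS5 according to the submitters' processing notes. The MAS5 version is not given in the sources used here. Array means after trimming 2% at each end were 496.87 to 498.59, and medians 95 to 183. In all, 1063 values were listed as 0. The platform annotation pairs 34945 of the 45037 probe sets with 1 symbol, 932 with several and 9160 with none. MAS5 subtracts mismatch signal, and probes that mismatch the transcript of one subspecies can read low there.

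Signals plus 31, the 20th percentile of all values, were taken to log2. Probe sets under the 40th percentile of the mean in a tissue were left out. limma 3.58.1 in R 4.3.3 was fitted per tissue to 14 arrays in 7 genotypes, with 7 residual degrees of freedom. Tissues were compared in 1 fit of 42 arrays with the animal as a block, whose estimated correlation was 0.293. P-values were adjusted within each comparison over all probe sets tested. The scripts were tested on simulated data. Groups, replicate numbers and ages come from the labels, which describe separate males.

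Every called member is named for the parental, reciprocal hybrid and interaction tests, and for both hybrids of a cross together against their parents. For differences between tissues, and for each hybrid genotype alone against its parents, only some of the called members are named. Signals per array are given for up to 4 called members of each branch with the largest difference. Other members are given to account for the set. Of each list of other genes, up to 4 called genes are named. The members, lists and tests were chosen with earlier results of these data known. Alternatives were an offset of 100, no filter, quantile normalization, the mean of a gene's probe sets, the replicate number as a block, and leaving out each array.

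Arrays of 1 animal deviated together, with a correlation above 0.1 between tissues in 21 of 21 pairs. The same replicate number in different genotypes marked no shared animal.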

Additional observations from a re-analysis of the deposited data

Results flagged for a closer look

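For 33 pairs of a member and a cross, the difference between the parents differed between brain, liver and testis by the interaction test of the fit with the animal as a block. The values below are its adjusted p.

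In castaneus minus musculus, 13 sterol genes were among them: Cyp51 (1.89e-06), Fdps (0.000177), Fdft1 (0.000204), Hmgcs1 (0.000221), Sqle (0.000294), Msmo1 (0.00277), Hsd17b7 (0.00882), Nsdhl (0.0175), Idi1 (0.0184), Stard4 (0.0196), Lss (0.022), Tm7sf2 (0.0389) and Dhcr7 (0.0468). For 12 of these genes the castaneus difference was higher in liver than in brain by 0.63 to 1.60, and for Stard4 by 0.03, where testis lay lower than brain by a change of -0.97. On Stard4 1429240_at, the brightest in brain, the liver difference was 0.99 higher than in brain. On Hsd17b7 1457248_x_at, the brightest in liver, it was 1.87 higher. Neither was the brightest over all arrays. Not called were Lss 1426913_at (adjusted p = 0.188), Idi1 1423804_a_at (adjusted p = 0.114), Hsd17b7 1440057_at (adjusted p = 0.101) and Stard4 1429239_a_at (adjusted p = 0.0549). The 8 fatty acid genes were Fads1 (6.12e-06), Scd1 (0.000481), Pnpla3 (0.0043), Thrsp (0.0189), Acly (0.0194), Acaca (0.0247), Elovl6 (0.0337) and Fads2 (0.0472). Of them, 7 had a lower castaneus difference in liver than in brain, and Thrsp had a higher one, by 0.82. For Thrsp the change in testis relative to brain was larger, at 1.58, and its probe set 1422973_a_at was not called (adjusted p = 0.482). Thrsp signals in testes were low, from 11 to 301. Elovl6 1417403_at was at -0.08 in liver and -0.14 in testis relative to brain, and not called (adjusted p = 0.961). Scd1 1415965_at was called, but its testis change was -0.80, against 0.62 on the brightest probe set.

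In domesticus minus musculus, the 4 sterol genes were Sqle (0.0115), Cyp51 (0.0119), Fdps (0.0195) and Hsd17b7 (0.0414), all with a higher difference in liver than in brain. The 8 fatty acid genes were Pnpla3 (2.53e-05), Fads1 (0.000568), Elovl6 (0.00136), Me1 (0.00155), Acsl5 (0.00284), Gpam (0.00904), Thrsp (0.0236) and Elovl5 (0.0251). All had a lower difference in liver than in brain. For Thrsp the liver change was only -0.13 and the testis change 1.26, and its probe set 1422973_a_at was not called (adjusted p = 0.248). Nor were Gpam 1425834_a_at (adjusted p = 0.423), Elovl6 1417403_at (adjusted p = 0.147) and Hsd17b7 1440057_at (adjusted p = 0.0669). Fads1 is named from its brightest probe set, and 1440444_at gave 0.688 for castaneus and 0.325 for domesticus. When each animal was left out in turn, 7 of the 21 castaneus genes were called every time, Cyp51, Fdft1, Fdps, Hmgcs1, Sqle, Fads1 and Scd1, and of the 12 domesticus genes Pnpla3 alone was. Both crosses share the musculus arrays.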

How the results depend on the processing

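Of 289 recomputed counts of called members, 251 stayed within 1.5 times the reported count and 38 moved further. A reported 0 that stayed 0 was taken as staying, and counts between tissues, near all members, had little room to move. The 251 therefore say little about the stability of the other counts. Read from the mean of a gene's probe sets, the counts were 0 in castaneus and 0 in domesticus brain (3 each by the brightest probe set), 7 in domesticus liver (4), 6 in domesticus testis (3) and 7 for the F1 of the castaneus cross in testis (11). For these hybrids, 21 were called with musculus x castaneus F1 only and 0 with castaneus x musculus F1 only, a comparison chosen after seeing the data. Without the animal as a block, the interaction counts were 10 for castaneus (21) and 7 for domesticus (12). Leaving out 1 array at a time, the counts were 0 to 2 in castaneus and 0 to 1 in domesticus brain, 4 to 11 in castaneus and 1 to 5 in domesticus liver, 4 to 6 in castaneus and 0 to 2 in domesticus testis, 5 to 9 for the castaneus cross F1 and 11 to 15 between its reciprocal F1 in testis. In liver they were 0 to 1 for the castaneus cross F1, with 1 without castaneus male 2, and 0 to 1 between the reciprocal F1 of the domesticus cross, with 1 without musculus x domesticus F1 male 2. In testis, 11 were called between the reciprocal F1 of the castaneus cross without musculus x castaneus F1 male 1, and 5 for the castaneus cross F1 without castaneus x musculus F1 male 1 or without musculus x castaneus F1 male 2. Leaving out 1 animal, the interaction counts were 9 to 21 for castaneus, with 9 without musculus male 1 and 13 without castaneus male 2, and 4 to 13 for domesticus, with 4 without musculus male 1 and 5 without domesticus male 2. The cause of these changes was not tested beyond the smaller number of arrays. Counts between tissues were 33 to 35 of 35. The remaining comparisons gave 0 under every array left out. Of 3201 recomputed differences of single called members, 2889 kept sign and call, and 302 kept the sign but lost the call. Many of the 3201 are differences between tissues, which rarely lost the call. The sign reversed in 10. Under the mean of probe sets these were Fads1 in domesticus brain (-0.0469), Scd1 between the reciprocal F1 of the castaneus cross in testis (-0.0215) and Gpam for its F1 (-0.072). With the castaneus x musculus F1 alone they were Elovl5 (-0.0152), Fdft1 (0.0026), Gpam (-0.21), Hmgcs1 (-0.12) and Msmo1 (-0.11). Under quantile normalization they were Mvk between testis and brain (0.037) and Fdft1 between testis and liver (0.21). Quantile normalization also changed the split of calls to 8 higher and 5 lower in castaneus liver (9 and 3), 1 and 1 in domesticus brain (2 and 1) and 2 and 0 in castaneus brain (2 and 1). The replicate number as a block gave 12 calls in castaneus liver, 3 in domesticus liver, 7 in castaneus testis, 3 in domesticus testis and 18 between the reciprocal F1 of the castaneus cross in testis, and changed no count by over 1.5 times. Same-numbered males of different genotypes correlated between -0.466 and 0.561 in brain, -0.281 and 0.297 in liver, and -0.39 and 0.306 in testis. The correlation was above 0.1 in 13, 10 and 10 of 21 pairs. The numbers name separate males, and whether arrays of 1 number were handled together was not tested. Dropping all arrays of 1 replicate number in the fits across tissues leaves no residual degrees of freedom and was not run. Signals near 31 are compressed on the scale used.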
